A study of Mus musculus with 12 samples.

Results

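Endoplasmic reticulum (ER) chaperones and ER stress factors were followed in mouse first molar germs of the lower jaw, of which the apical portion was dissected. The set comprised 10 genes taken by symbol from the deposited expression table of 25899 genes, and all 10 were found once and passed the filter on low values. They were the chaperone genes Hspa5 and Hsp90b1, the lectin chaperone genes Calr and Canx, the disulphide isomerase genes Pdia3, Pdia4 and Pdia6, and the stress factor genes Xbp1, Atf4 and Ddit3. Total RNA came from molars of C57BL/6 mice at postnatal day 4, in 6 libraries of Nfic-/- mice and 6 libraries of Nfic+/- littermate controls. The controls therefore carried 1 intact copy of Nfic, and a wild-type group was not analysed here. The labels used here do not say how the mutant allele was made or whether a library holds 1 animal or a pool. In each genotype the libraries are numbered 5 to 10.

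Proteins that enter the secretory pathway fold in the ER. Hspa5 (BiP) and Hsp90b1 (Grp94) are its main chaperones of the Hsp70 and Hsp90 families, calreticulin (Calr) and calnexin (Canx) hold glycoproteins through their sugars, and the Pdia enzymes form and shuffle disulphide bonds. When unfolded protein builds up, sensors in the ER membrane start the unfolded protein response. One arm splices the Xbp1 transcript into the mRNA of an active transcription factor, one releases the factor Atf6, and one raises translation of Atf4, which induces Ddit3 (Chop), a factor linked to cell death under lasting stress. Ameloblasts and odontoblasts of the molar germ secrete the enamel and dentin matrix and are rich in ER.

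The tissue carried the markers of its label, and Nfic transcript was present in the molars of both genotypes. All 7 enamel epithelium markers and all 9 odontoblast and dentin markers averaged 1 RPKM (reads per kilobase, scaled to library depth) or more, and Amelx alone, the gene of the main enamel protein, took 3.40% to 13.5% of the reads in genes. Dspp, the dentin phosphoprotein gene, had 292 to 599 RPKM in Nfic-/- molars, against 441 to 766 RPKM in Nfic+/- molars, and Krt14, a keratin gene of dental epithelium, had 568 to 776 RPKM in Nfic-/- molars, against 417 to 636 RPKM in Nfic+/- molars. Nfic ran from 7.90 to 16.5 RPKM in Nfic-/- molars, against 11.3 to 24.5 RPKM in Nfic+/- molars, so the groups overlapped (exact 2-sided permutation p = 0.0303, log2 difference -0.52). That p was between 0.0519 and 0.0628 when any 1 of Nfic-/- libraries 5 and 6 and Nfic+/- libraries 6 and 10 was left out. Markers of intestine summed to 137 to 188 RPKM in the 4 libraries numbered 8 and 9 and to 0.281 to 0.680 RPKM in the other 8, with both genotypes in each class. Depth was 70.2 to 96.4 M reads per library, at which 1 read per kilobase equals 0.0104 to 0.0142 RPKM.

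The promoters of 5 chaperone and isomerase genes carried the same rare sequence element. The ER stress response element (ERSE) is the site through which Atf6 and spliced Xbp1 are known to act with the factor NF-Y, and its letters are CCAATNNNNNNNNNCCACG. RefSeq promoter windows on GRCm38.p6, from 250 bases before to 50 bases after the gene start, were found for all 10 members and searched on both strands. The ERSE was present in 5 of the 10, and in 39 of all 32851 windows (0.119%). The promoters of Hspa5 and Hsp90b1 are shown because they hold the most matches. Capitals mark the ERSE and, upstream in Hspa5, the letters TGACGTG of the unfolded protein response element core, and bases count back from the RefSeq gene start.
Hspa5 promoter, chr2:34771840-34772089, plus strand: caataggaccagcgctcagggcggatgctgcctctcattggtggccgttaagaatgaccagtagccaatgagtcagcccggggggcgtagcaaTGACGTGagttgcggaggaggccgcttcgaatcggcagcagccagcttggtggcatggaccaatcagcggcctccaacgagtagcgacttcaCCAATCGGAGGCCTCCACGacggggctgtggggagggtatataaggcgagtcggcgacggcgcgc
Hsp90b1 promoter, chr10:86705445-86705694, minus strand: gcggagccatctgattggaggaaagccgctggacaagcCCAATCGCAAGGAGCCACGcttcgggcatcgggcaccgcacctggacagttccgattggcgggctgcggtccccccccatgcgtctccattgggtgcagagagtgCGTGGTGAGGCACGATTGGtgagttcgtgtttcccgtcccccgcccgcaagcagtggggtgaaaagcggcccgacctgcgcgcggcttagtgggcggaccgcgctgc
The longest gene models of Hspa5 and Hsp90b1 in GENCODE M21 begin upstream of these RefSeq starts. All 6 ERSE matches in the members follow, each turned into the direction of the motif, with the fixed letters in capitals.
Hspa5, bases -65 to -47, chr2:34772025-34772043: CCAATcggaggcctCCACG
Hsp90b1, bases -212 to -194, chr10:86705638-86705656: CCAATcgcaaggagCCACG
Hsp90b1, bases -107 to -89, chr10:86705533-86705551: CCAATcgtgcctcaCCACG
Calr, bases -162 to -144, chr8:84847075-84847093: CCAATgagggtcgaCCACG
Canx, bases -145 to -127, chr11:50325800-50325818: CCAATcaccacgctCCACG
Pdia6, bases -98 to -80, chr12:17266491-17266509: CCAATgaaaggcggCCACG
The spacers between the fixed ends differed between all 6 matches. With 1 mismatch allowed in the fixed letters, the element was found in 8 of the 10 members, which added Pdia3, Pdia4 and Ddit3, and in 494 of all 32851 windows. Xbp1 and Atf4 had no such match. The core TGACGTG, searched on both strands, occurred in Hspa5 alone among the members and in 2.01% of windows. The shorter element ATTGGNCCACG (0.0365% of windows) and the Atf4 site TGATGNAAN (3.95% of windows) occurred in none of the 10. The 13 genes of the expression test whose window held an exact ERSE also included Dnajc3, Creld2 and Syvn1 of the lists described further on, and Alg12, whose window overlaps that of Creld2 on the other strand. The others of the 13 were Spats2l, Hnrnpa3, Pan2 and Adcy3, which are in none of the lists used here. Such matches describe letters in a window of the reference and do not show binding in these samples.

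**Figure D1:**
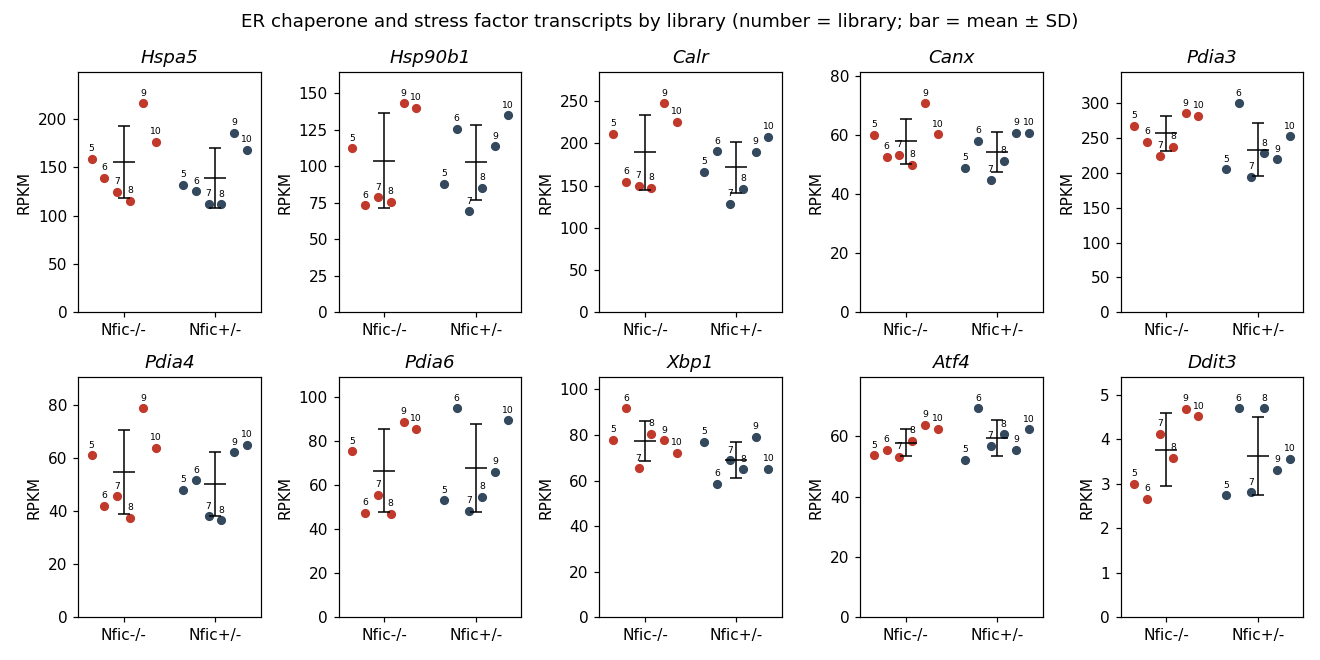
RPKM of the 10 genes in each library (y axis from 0), with Nfic-/- libraries left and Nfic+/- libraries right, the library number above each point and bars for the mean ± SD (n = 6 each). The genotypes overlap in every panel, and libraries 9 and 10 of both genotypes lie high for Hspa5, at 168 to 216 RPKM.

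Hspa5 and Hsp90b1 were among the most abundant transcripts of the molar germ and varied more between libraries than between genotypes. Hspa5 (ENSMUSG00000026864, GRCm38 chromosome 2, 34771970 to 34777547) had 116, 149 and 216 RPKM as lowest, median and highest value in Nfic-/- molars, against 112, 128 and 185 RPKM in Nfic+/- molars. Hsp90b1 (ENSMUSG00000020048, chromosome 10, 86690209 to 86705509) had 73.3, 95.4 and 143 RPKM in Nfic-/- molars, against 69.2, 101 and 135 RPKM in Nfic+/- molars. The groups overlapped over nearly their whole range for both genes. The highest library held 1.94 times the lowest for Hspa5 and 2.07 times for Hsp90b1, and the extreme high value was Nfic-/- library 9 for each. Averages of Hspa5 were 155 ± 37.3 RPKM in Nfic-/- and 139 ± 30.8 RPKM in Nfic+/- molars (SD, n = 6 each), which places it 151st in level among the 12094 genes tested.

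The lectin chaperones followed a like order of libraries. Calr (ENSMUSG00000003814, chromosome 8, 84841850 to 84846934), the soluble lectin chaperone that also buffers ER calcium, had 147, 183 and 248 RPKM as lowest, median and highest value in Nfic-/- molars, against 129, 178 and 208 RPKM in Nfic+/- molars. Canx (ENSMUSG00000020368, chromosome 11, 50293961 to 50325673), its membrane-bound relative, had 49.8, 56.6 and 70.7 RPKM in Nfic-/- molars, against 44.8, 54.6 and 60.7 RPKM in Nfic+/- molars. Nfic-/- library 9 was highest and Nfic+/- library 7 lowest for both genes. Canx spanned 1.58-fold over the 12 libraries and Calr 1.92-fold.

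Of the disulphide isomerases, Pdia3 was the most abundant and the steadiest. Pdia3 (ENSMUSG00000027248, chromosome 2, 121413775 to 121438687), the partner of Calr and Canx in glycoprotein folding, had 224, 257 and 286 RPKM in Nfic-/- molars, against 195, 224 and 300.3 RPKM in Nfic+/- molars. Its highest value was Nfic+/- library 6, and without that library the Nfic+/- values reached no more than 253 RPKM. Pdia4 (ENSMUSG00000025823, chromosome 6, 47796141 to 47813430) had 37.6, 53.3 and 78.7 RPKM in Nfic-/- molars, against 36.6, 49.8 and 65.03 RPKM in Nfic+/- molars. Pdia6 (ENSMUSG00000020571, chromosome 12, 17266545 to 17284770), which also acts on the stress sensor Ern1, had 46.8, 65.4 and 88.6 RPKM in Nfic-/- molars, against 48.3, 60.3 and 94.7 RPKM in Nfic+/- molars. The groups overlapped in all 3 genes.

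The stress factors differed widely in level. Xbp1 (ENSMUSG00000020484, chromosome 11, 5520659 to 5525893) had 65.4, 77.7 and 91.6 RPKM in Nfic-/- molars, against 58.6, 67.0 and 79.2 RPKM in Nfic+/- molars, and only Nfic-/- libraries 6 and 8 exceeded all Nfic+/- values. A gene value does not separate spliced from unspliced Xbp1. Atf4 (ENSMUSG00000042406, chromosome 15, 80255184 to 80257541) had 53.1, 57.05 and 63.9 RPKM in Nfic-/- molars, against 52.3, 58.7 and 69.3 RPKM in Nfic+/- molars. It was the steadiest member, with 1.33-fold between the highest and the lowest library. Ddit3 (ENSMUSG00000025408, chromosome 10, 127290774 to 127296288) had 2.67, 3.85 and 4.68 RPKM in Nfic-/- molars, against 2.74, 3.43 and 4.69 RPKM in Nfic+/- molars. Ddit3 ranked 7970th of 12094 tested genes in level, whereas the other 9 members ranked from 84th (Pdia3) to 528th (Pdia4). Its values rest on about 321 to 754 reads per library.

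None of the 10 genes separated the genotypes beyond the spread between libraries. Differences (Nfic-/- minus Nfic+/-) on the log2(RPKM + 1) scale ran from -0.04 for Atf4 (SE 0.0805) to 0.17 for Xbp1 (SE 0.0948), with 7 of 10 above 0 and 3 below, where 48.9% of all 12094 tested genes were above 0 and 51.1% below. Their median was 0.10, against -0.003 over all tested genes. By limma with Benjamini-Hochberg adjustment over all genes, 0 of 10 members passed an adjusted p of 0.05, as did 0% of all genes, and the adjusted p was 0.974 for Xbp1 and, rounded, 1 for the other 9. At an unadjusted p under 0.05 stood 0 of 10 members and 646 of 12094 genes (5.34%, made up of 2.62% higher and 2.72% lower in Nfic-/- molars). The exact rank test likewise gave 0 members and 461 genes. The groups of no member were free of overlap, against 0.157% of tested genes.

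The intervals come from the fit without pairing, and under that fit they bound what these libraries could have missed. The 95% interval of the difference was -0.04 to 0.37 for Xbp1, -0.21 to 0.14 for Atf4, -0.09 to 0.38 for Pdia3 and -0.13 to 0.31 for Canx. It was wider for Hspa5 (-0.21 to 0.51), Calr (-0.22 to 0.47), Pdia4 (-0.30 to 0.52), Pdia6 (-0.48 to 0.42), Hsp90b1 (-0.46 to 0.45) and Ddit3 (-0.26 to 0.35). Libraries 5 to 7 and 8 to 10, whose column names show at least 2 sample sheets, gave a median member difference of 0.09 and 0.11. Without Nfic-/- library 9 the difference was 0.05 for Hspa5, 0.04 for Calr and 0.03 for Canx, and the median was 0.02. The median was 0.16 without both libraries numbered 6. Under 30 alternative settings and library sets, Pdia3 had an unadjusted p under 0.05 in 5, where its difference lay between 0.12 and 0.24 and its adjusted p between 0.133 and 0.852 by limma. Over all 30 the difference of Pdia3 lay between 0.07 and 0.24 and its adjusted p between 0.133 and 1. Xbp1 had such a p in 1 of 30, without Nfic-/- library 7, and the other 8 members in none.

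**Figure D2:**
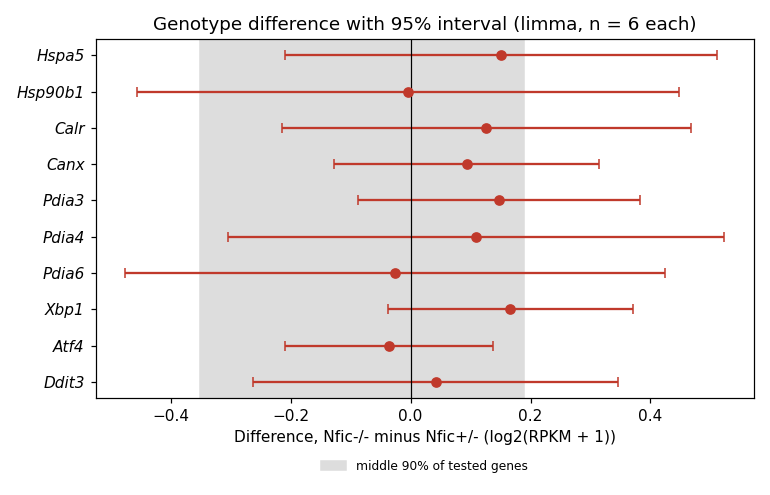
Difference between Nfic-/- and Nfic+/- molars in log2(RPKM + 1) (x axis) for each gene (y axis), with its 95% limma interval (n = 6 each). The grey band holds the middle 90% of the tested genes, from -0.35 to 0.19, and every interval crosses 0.

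Across the 12 libraries most pairs of the 7 chaperone and isomerase genes were correlated, and no correlation of these genes with Xbp1 passed the test. Libraries 9 and 10 of Nfic-/- molars were among the 4 highest for 7 of 7 chaperone genes, and Nfic+/- library 10 for 6 of 7. Nfic+/- library 7 was among the 4 lowest for 7 of 7, and Nfic-/- library 8 for 6 of 7. The 7 genes summed to 710 RPKM in Nfic-/- library 8 and 1131 RPKM in Nfic-/- library 9, and to 636 RPKM in Nfic+/- library 7 and 979 RPKM in Nfic+/- library 10. Both genotypes thus covered most of the range. Of the 4 libraries with intestinal transcripts, Nfic-/- library 9 was among the 4 highest for 7 of 7 chaperone genes and Nfic+/- library 9 for 3 of 7, while Nfic-/- library 8 was among the 4 lowest for 6 of 7 and Nfic+/- library 8 for 4 of 7. Skeletal muscle markers summed to 38.7 RPKM in Nfic-/- library 9, where the chaperone sum was highest, and to 2.79 to 7.45 RPKM in the other 11. Erythroid markers summed to 3337 RPKM in Nfic-/- library 9 and to 847 to 2205 RPKM in the other 11. Osteoclast markers summed to 113 RPKM there and to 15.5 to 102 RPKM in the other 11. The part of these cells in the chaperone levels was not tested.

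**Figure D3:**
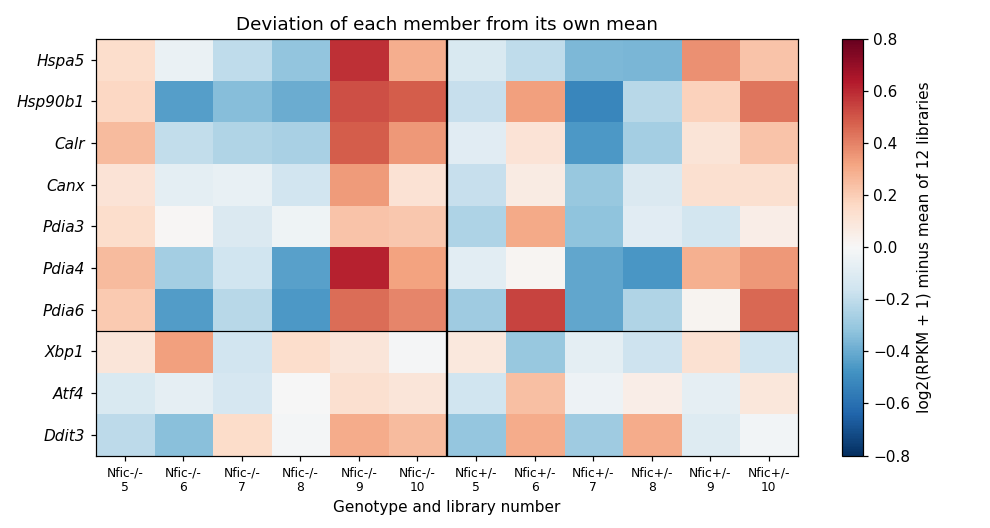
Deviation of each gene (rows) from its own mean over the 12 libraries in log2(RPKM + 1), with Nfic-/- libraries left and Nfic+/- libraries right of the line (columns). The 7 chaperone genes above the line are red at Nfic-/- libraries 9 and 10 and at Nfic+/- library 10, and Xbp1 is lowest in Nfic+/- library 6, at 58.6 RPKM.

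Of the 45 pairs of members, 22 had a Pearson correlation past an adjusted p of 0.05 (permutation test with 100000 resamples, adjusted over the 45 pairs), and 19 of these were among the 21 pairs of chaperone genes. By Spearman's rho the counts were 19 and 17. Genes at large were also correlated in these libraries: 32.3% of all pairs of the 12094 tested genes had a correlation at least as strong as the weakest called member pair (an absolute r of 0.66), beside 48.9% of the member pairs and 90.5% of the chaperone pairs. After median-of-ratios scaling these shares were 12.1%, 26.7% and 52.4%. The shares are descriptions, since pairs share genes and libraries. The closest pair was Hsp90b1 and Pdia6 (r = 0.96, permutation p = 3.0e-05, rho = 0.874, permutation p = 0.00039). Without the 2 libraries farthest from the median Hsp90b1 level, r was 0.96, and it was 0.97 within libraries 5 to 7 and 0.99 within libraries 8 to 10. Hspa5 was closest to Pdia4 (r = 0.94, permutation p = 3.0e-05, rho = 0.916, permutation p = 0.00015, and r = 0.92 without the 2 libraries farthest from the median Hspa5 level). The 2 chaperone pairs that did not pass were Hspa5 with Pdia3 (r = 0.49, permutation p = 0.109, rho = 0.448, permutation p = 0.145, r = 0.56 without 2 libraries) and Pdia3 with Pdia4 (r = 0.59, permutation p = 0.0449, rho = 0.531, permutation p = 0.0785, r = 0.60 without 2 libraries), with adjusted p of 0.163 and 0.0843. Xbp1 passed with 0 of the 7 chaperone genes, with r from -0.41 to 0.30 (permutation test, highest adjusted p 0.958). Atf4 passed with Pdia3, Pdia6 and Ddit3, and Ddit3 with Atf4 alone. The correlations share the scaling of each library: after median-of-ratios scaling 9 of the 21 chaperone pairs and 9 of all 45 passed, and without the 4 libraries numbered 8 and 9 these counts were 11 and 11. With 1 library left out in turn, 15 to 20 of the 21 passed.

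The 10 tested genes with the highest Pearson r with Hspa5 on log2(RPKM + 1), given as a description over 12 libraries, were led by Mlec (r = 0.97), which encodes the ER lectin malectin, Hyou1 (r = 0.97), an ER chaperone and exchange factor of Hspa5, Dnajc3 (r = 0.95), a co-chaperone and inhibitor of the Eif2ak3 kinase, and the member Pdia4. Dhdds, whose product makes the dolichol that carries sugars to ER proteins, was also among them (r = 0.94). The others named here were Acp6, Srrt, Cdk2ap2 and Rabggtb, with r from 0.94 to 0.95, and 1 further gene was a clone without a gene name. No share of ER genes among all tested genes was computed. Within libraries 5 to 7 the r of the 10 genes ran from 0.67 to 0.92, and within libraries 8 to 10 from 0.95 to 0.99. Hyou1 averaged 19.6 ± 4.85 RPKM in Nfic-/- and 16.3 ± 4.15 RPKM in Nfic+/- molars, and Mlec 77.7 ± 12.2 RPKM in Nfic-/- and 71.6 ± 10.1 RPKM in Nfic+/- molars (SD, n = 6 each).

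Hspa5 and the stress factors were set against marker levels of the secretory cells, since enamel transcripts varied strongly between libraries. The 7 enamel markers summed to 52825 to 140049 RPKM in Nfic-/- molars and to 36034 to 142043 RPKM in Nfic+/- molars. The relations used the mean log2(RPKM + 1) instead, in which each marker counts alike. Between the highest and the lowest library Amtn spanned 279-fold and Odam 21.4-fold, and the others 2.33-fold (Enam) to 7.13-fold (Klk4). Sum and mean ordered libraries differently: Nfic-/- library 8 had 109059 RPKM and a mean of 8.04, Nfic-/- library 7 had 99324 RPKM and 8.87. Of 8 relations tested, between Hspa5, Xbp1, Atf4 or Ddit3 and the mean level of the enamel or the dentin markers, 2 passed on the values as deposited. Atf4 was lower where enamel markers were higher (r = -0.90, permutation p = 0.00011, adjusted over 8 relations 0.00088; rho = -0.895, permutation p = 0.00025, adjusted 0.002), with r = -0.87 without Nfic+/- libraries 5 and 6, which lay farthest from the median enamel level. Ddit3 had r = -0.73 (permutation p = 0.00846, adjusted 0.0338; rho = -0.741, permutation p = 0.00765, adjusted 0.0306) and r = -0.61 without the same 2 libraries. The adjusted call of Ddit3 was lost when any 1 of Nfic-/- libraries 6, 9 and 10 or Nfic+/- libraries 5, 6, 7 and 9 was left out, with r between -0.73 and -0.67 and an adjusted permutation p between 0.054 and 0.11. Within libraries 5 to 7 and 8 to 10, r was -0.88 and -0.94 for Atf4 and -0.70 and -0.43 for Ddit3. Of the 12087 tested genes outside the enamel list, 90.4% had a negative r with the enamel markers, with a median of -0.67, so that a negative r with this list was the common state. Atf4 was among the lowest 5.48%, whereas 40.2% of these genes had an r as low as that of Ddit3 or lower.

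On the values as deposited the r of Xbp1 with the enamel markers was 0.44 (permutation p = 0.148, adjusted 0.395, rho = 0.476, permutation p = 0.123, adjusted 0.327, and r = 0.25 without the 2 farthest libraries). Of the tested genes, 96.5% had an r as low as that of Xbp1 or lower. After median-of-ratios scaling, where the median r of all genes was -0.04, Xbp1 had r = 0.78 (permutation p = 0.00238, adjusted 0.019), with 93.7% of tested genes at or below it, Atf4 turned to r = 0.47 (permutation p = 0.121, adjusted 0.483) and Ddit3 had r = -0.39 (permutation p = 0.21, adjusted 0.516). With the deposited values and without both libraries numbered 6, the r of Xbp1 was 0.10 (permutation p = 0.796). As deposited, Hspa5 had r = -0.34 with the enamel markers (permutation p = 0.28, adjusted over 8 relations 0.559, rho = -0.238, permutation p = 0.457), and r = -0.51 without the 2 farthest libraries. Of the tested genes, 79.9% had an r as low as that of Hspa5 or lower. After median-of-ratios scaling the r of Hspa5 was 0.14 (permutation p = 0.662, adjusted 0.757). None of the 4 genes passed with the dentin markers, where r as deposited lay between -0.17 and 0.09 (permutation test, lowest p 0.596). In bulk tissue, fewer cells of a type and less RNA per cell cannot be told apart.

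**Figure D4:**
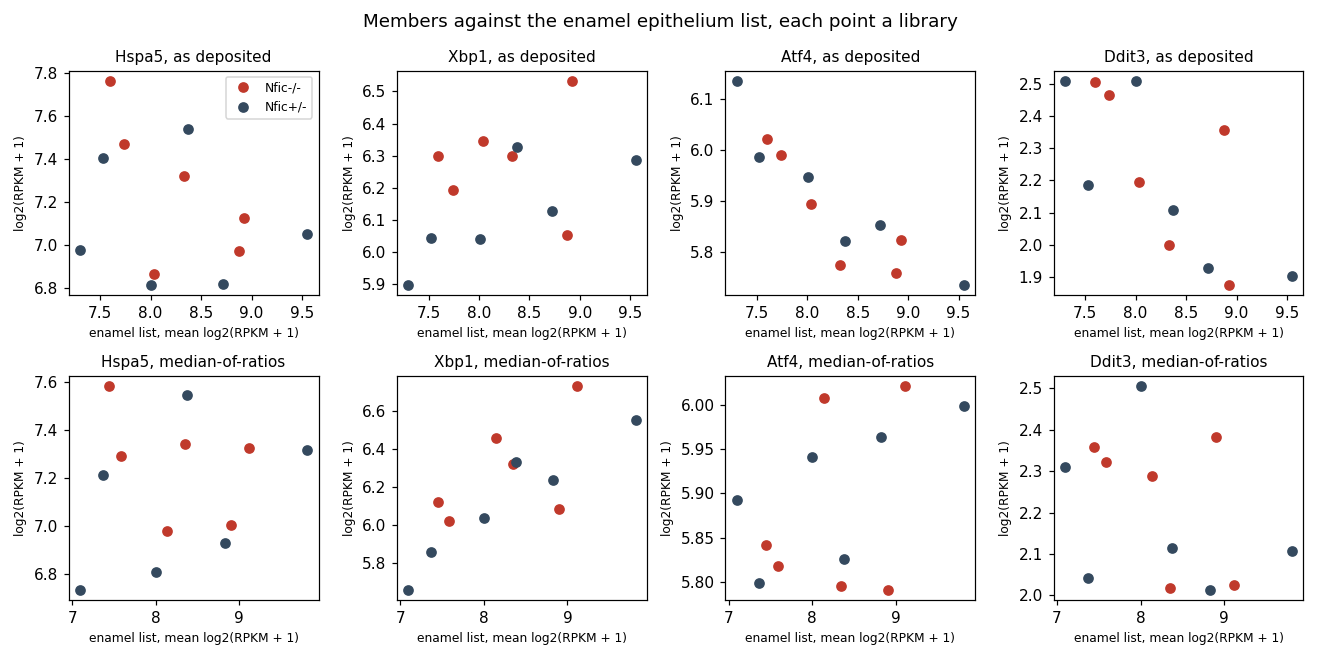
Level of Hspa5, Xbp1, Atf4 and Ddit3 in log2(RPKM + 1) (y axes) against the mean level of the 7 enamel markers (x axes), 1 point per library, with Nfic-/- in red and Nfic+/- in dark blue, as deposited (top) and after median-of-ratios scaling (bottom). Atf4 runs downward as deposited (r = -0.90) and not after scaling (r = 0.47), while Xbp1 runs upward after scaling (r = 0.78).

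The wider folding pathway gave no called gene either. Of 133 tested genes in 8 lists of related function, 0 passed the adjusted threshold in either direction (limma, Benjamini-Hochberg over all 12094 genes), and 18 had an unadjusted p under 0.05, where the share over all genes was 5.34%. Chaperone partners had a median difference of 0.09, with 14 of 19 tested genes above 0, where 48.9% of all tested genes were above 0. The 8 dental epithelium markers were all above 0 too, with a median of 0.30, and summed to 1790 to 2621 RPKM in Nfic-/- molars, against 1475 to 2221 RPKM in Nfic+/- molars. The part of these cells in the list values was not tested. Dnajb11, an Hsp40 partner of Hspa5, had 32.4 to 40.2 RPKM in Nfic-/- molars, against 26.9 to 34.4 RPKM in Nfic+/- molars, with 0.22 as the log2 difference (SE 0.0754, limma adjusted p = 0.934). The ER stress-induced factor gene Manf had 36.4 to 56.2 RPKM in Nfic-/- molars, against 30.2 to 44.7 RPKM in Nfic+/- molars. Sec61a1, the channel through which proteins enter the ER, had 61.04 to 74.2 RPKM in Nfic-/- molars, against 59.6 to 67.1 RPKM in Nfic+/- molars. The groups overlapped in all 3 genes.

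Glycoprotein quality control genes had a median difference of 0.09, with 8 of 12 tested genes above 0 (48.9% of all tested genes). Os9, a lectin that hands misfolded glycoproteins to degradation, had 51.3 to 61.4 RPKM in Nfic-/- molars, against 44.1 to 58.2 RPKM in Nfic+/- molars (difference 0.24, SE 0.0783, limma adjusted p = 0.934). Edem2, which trims their mannose, had 8.07 to 10.8 RPKM in Nfic-/- molars, against 7.62 to 8.94 RPKM in Nfic+/- molars, and its relative Edem3 differed by 0.09 (SE 0.0673). The other disulphide isomerases and oxidases had a median of 0.04 over 16 tested genes, where Tmx2 differed by 0.16, Txndc11 by 0.14 and Tmx4 by -0.24. ER-associated degradation genes had a median of 0.01 over 14 tested genes. Their values with the smallest p were 0.14 for Derl1, -0.37 for Herpud1 and -0.16 for Ube2j1. Without Nfic-/- library 6 the value of Herpud1 was -0.24.

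Stress sensors and membrane-bound factors had a median of 0.01 over 15 tested genes, and the known targets of Atf4 and Ddit3 had a median of -0.03 over 23. Ern1, the sensor kinase and nuclease that splices Xbp1, had 10.6 to 20.6 RPKM in Nfic-/- molars, against 9.90 to 14.4 RPKM in Nfic+/- molars. The difference of Ern1 was 0.25 (SE 0.143, limma adjusted p = 0.98), and 0.15 without Nfic-/- library 6. Creb3l1, an ER-anchored factor of matrix-secreting cells, had 14.9 to 25.9 RPKM in Nfic-/- molars, against 25 to 35.3 RPKM in Nfic+/- molars, so that 2 Nfic-/- libraries lay within the range of Nfic+/- molars. Its difference of -0.55 (SE 0.132, unadjusted p = 0.000973, limma adjusted p = 0.934) had the smallest p of all pathway genes, and libraries 5 to 7 gave -0.84, libraries 8 to 10 gave -0.27. Eif2ak2, the kinase that senses double-stranded RNA, differed by -0.37 (SE 0.176). Among the Atf4 targets Pck2 (-0.46, SE 0.186), Chac1 (-0.50, SE 0.227) and Mthfd2 (-0.30, SE 0.138) had the smallest p. Chac1, a glutathione-degrading enzyme gene, was at 3.13 to 4.44 RPKM in 5 Nfic-/- libraries and 9.55 RPKM in Nfic-/- library 9, against 4.71 to 10.8 RPKM in Nfic+/- molars.

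Collagen folding genes had the lowest median of the 8 lists, -0.13, and 12 of 18 tested genes were below 0, where 51.1% of all tested genes were. Of the 18, 6 genes below 0 and 2 above 0 (Plod2 and P4ha2, the second named after its values were seen) had an unadjusted p under 0.05, beside 5.34% of all tested genes. Crtap, a subunit of the collagen prolyl 3-hydroxylase complex, had 24.03 to 58.9 RPKM in Nfic-/- molars, against 43.7 to 75.1 RPKM in Nfic+/- molars (difference -0.51, SE 0.182, limma adjusted p = 0.934). Leprel1 (P3h2 in current annotation), a prolyl 3-hydroxylase gene, differed by -0.46, and Plod2, a collagen lysyl hydroxylase gene, by 0.38. The 7 dental mesenchyme markers summed to 144 to 509 RPKM in Nfic-/- molars, against 268 to 568 RPKM in Nfic+/- molars, and all 7 had a difference below 0. Of the 9 odontoblast and dentin markers, 8 were below 0, and they summed to 2640 to 5155 RPKM in Nfic-/- molars, against 4019 to 6200 RPKM in Nfic+/- molars. The part of these cells in the collagen folding values was not tested. The 16 cytosolic and mitochondrial chaperone genes, which respond to heat and other stress outside the ER, had a median of 0.02 and none with an unadjusted p under 0.05. The values with the smallest p in that list were 0.07 for Hspe1, -0.10 for Hsp90aa1 and -0.05 for Bag3.

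**Figure D5:**
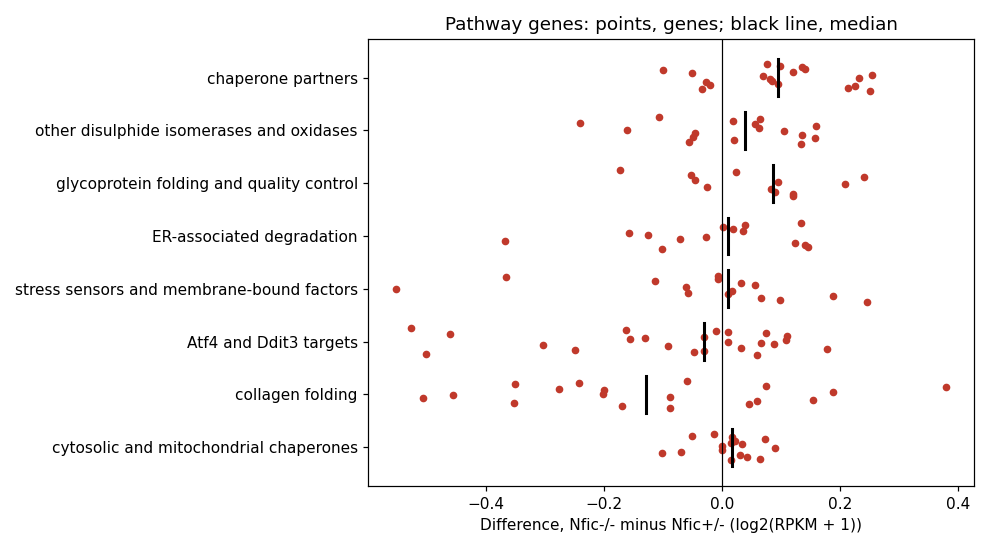
Difference between Nfic-/- and Nfic+/- molars in log2(RPKM + 1) (x axis) for each tested gene of the 8 pathway lists (rows), with a black line at each median. Medians lie between -0.13 for collagen folding and 0.09 for chaperone partners, and no gene passed the adjusted threshold.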

How the data were processed

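Total RNA from the apical portion of lower first molars was sequenced in 12 libraries. Reads were aligned with TopHat2 to mm10, per the submitters' processing notes. No label or note used here names the counting tool, the annotation or the aligner's version. The authors deposited 1 table described as RPKM, whose values from -11.1 to 16.7 were read as log2 of RPKM. Base 2 was settled from the values: of 7081 low values (under 20 reads), 100% came out as whole reads within 0.02 reads with base 2 and a floor of 0.9 reads. No count test was made. Depth was 70.2 to 96.4 M reads, read from that floor and GENCODE M21 exon lengths (24987 identifiers matched, 912 not).

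Values were turned back to RPKM and compared as log2(RPKM + 1) for the 12094 genes that averaged at least 1 RPKM. Genotype was the only term of the limma fit (limma 3.58.1, R 4.3.3), whose variance followed a trend with level. The fit was first tested on simulated data. Correlations over libraries used 100000 permutations. Promoter sequences are from RefSeq (GRCm38.p6), and Python 3.11.15 made the other tables and the figures. The genes named were the 10 members, Nfic, the 3 genes of each pathway list with the smallest p, some cell markers and the 10 genes most like Hspa5. Tested genes with an exact ERSE were named as well. The members and lists were chosen with earlier results of these data known. P-values measure the spread between libraries, which may be technical, since no label gives 1 animal per library.

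Alternatives were the library number as a block, a term for libraries 5 to 7 against 8 to 10, other pseudocounts, filters, scalings and variance models, a rank test, and libraries left out. Whether equal numbers in the 2 genotypes pair the samples was not settled by the check used, as the closing section gives.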

Additional observations from a re-analysis of the deposited data

Results flagged for a closer look

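In 2 of 70 groups of 6 libraries, 1 library stood apart from the other 5, with a gap to its nearest neighbour above Dixon's 95% critical value for 6 samples, where chance alone marks about 1 group in 20. Chac1 was at 9.55 RPKM in Nfic-/- library 9, against 3.13 to 4.44 RPKM in the other 5 Nfic-/- libraries (a gap of 0.707 of the range in log2(RPKM + 1)). Tmx2 was at 13.0 RPKM in Nfic+/- library 6, against 10.8 to 11.5 RPKM in the other 5 Nfic+/- libraries (a gap of 0.651 of the range).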

How the results depend on the processing

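With the library number as a replicate block, 0 genes and 0 of 10 members passed, and limma gave 981 genes an unadjusted p under 0.05, where the smallest adjusted p was 0.0872. In that fit the Hspa5 difference of 0.15 had an SE of 0.0746 (limma unadjusted p = 0.0737, adjusted 0.689), against 0.168 without the block. The SE also fell for the other chaperone and isomerase members and rose for Xbp1, Atf4 and Ddit3. The series speaks of 6 littermate pairs, but no label ties the numbers to them. After removal of group means, the r between libraries sharing a number was 0.49, 0.005, 0.31, 0.67, 0.69 and 0.80 from number 5 to number 10 (across genes, with no p). In 3 of 6 numbers the 2 libraries were each other's closest library of the other genotype. Libraries of the same genotype were not compared. This check did not settle whether the numbers pair the samples, and the main fit left them unpaired. Counts of called members were 0 under every alternative run. With library weights 17 genes passed over the whole table, and 0 under each other alternative run (271 to 1249 at an unadjusted p under 0.05). The median member difference was 0.023 with equal sums of RPKM and 0.015 to 0.14 with 1 library left out. Differences near 0 changed sign. Hsp90b1 was 0.071 in libraries 8 to 10, 0.0076 with median-of-ratios scaling, 0.11 with library weights, 0.15 without both libraries numbered 6 and -0.11 to 0.084 with 1 library left out. Pdia6 was 0.046, 0.16 and 0.17 in libraries 8 to 10, with weights and without the libraries numbered 6, and -0.12 to 0.079 with 1 left out. Atf4 was 0.050 in libraries 8 to 10, 0.019 without the libraries numbered 6 and -0.071 to 0.0086 with 1 left out. Ddit3 was -0.037 in libraries 5 to 7, -0.020 with equal sums, -0.031 with weights and -0.016 to 0.11 with 1 left out, and Pdia4 was -0.0038 to 0.21. Of the other named genes, Edem3 was -0.032 and Chac1 0.038 in libraries 8 to 10, Hspe1 was -0.0029 with equal sums, and Bag3 was 0.026 with weights, 0.0049 without the libraries numbered 6 and -0.087 to 0.0078 with 1 left out. The Nfic difference was -0.63 to -0.41 with 1 library left out.

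For the relations, with settings chosen after seeing the data except median-of-ratios scaling of the marker relations, the called pairs of 45 were 9, 11 and 11 with median-of-ratios scaling, equal sums without the enamel markers, and without libraries 8 and 9, and those of 21 were also 9, 11 and 11. With equal sums without the enamel markers the r with that list was 0.12 for Atf4, 0.76 for Xbp1 and -0.52 for Ddit3 (permutation p = 0.699, 0.00358 and 0.0845), and with median-of-ratios scaling 0.47, 0.78 and -0.39. For Ddit3 it was -0.71 without libraries 8 and 9 (exact permutation p = 0.0569), -0.63 without both libraries numbered 6, and -0.83 to -0.67 with 1 left out, where the adjusted call was lost for 7 of the 12 libraries. Ddit3 had about 321 to 754 reads per library, and the part of counting error in its spread was not tested.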
